A study of Mus musculus with 37 samples.

Results

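The genes described here are 33 core factors of DNA replication whose mRNAs a growing oocyte stores for the first S phases of the embryo. They were chosen by symbol, as the subunits of the MCM helicase (Mcm2 to Mcm7), the origin recognition complex (Orc1 to Orc6), the licensing factors Cdc6, Cdt1 and Gmnn, the helicase activators Mcm10, Cdc45 and Gins1 to Gins4, the primase and polymerase alpha subunits Pola1, Prim1 and Prim2, the sliding clamp Pcna with its loader Rfc1 to Rfc5, and the single-strand binding complex Rpa1 to Rpa3. All 33 were found among the 54752 genes of the expression table.

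In background, the origin recognition complex marks the sites where replication can start, and Cdc6 and Cdt1 load the MCM helicase onto them. Cdc45 and the GINS complex then turn the loaded helicase into an active one, primase and polymerase alpha lay down primers, and the clamp loader places Pcna on the DNA for the replicative polymerases. A fully grown oocyte makes almost no new RNA, so mRNAs for these factors are kept from growth onwards, and some, Orc6 among them, are known as dormant mRNAs that are translated only during maturation, when their poly(A) tails are lengthened.

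Single oocytes of C57BL/6 female mice aged 6 to 8 weeks were sequenced one by one with Smart-seq2, a method that starts cDNA synthesis at the poly(A) tail. All females received pregnant mare serum gonadotropin. The ovary, 48 h later, was the source of germinal vesicle (GV) oocytes, which are arrested in prophase of the first meiotic division. For metaphase II (MII) oocytes, females had a second hormone, human chorionic gonadotropin, at 48 h, and ovulated oocytes came from the oviduct (ampulla) after another 15 h. Metaphase I (MI) oocytes were GV oocytes without cumulus cells that had been cultured for 8 h in M16 medium. Batch A held 6 GV and 6 MII oocytes, and batch B held 10 GV and 15 MI oocytes, so each later stage was compared with the GV oocytes of its own batch. The animal of each oocyte was not given in the sources used here, and p-values therefore measure the spread between oocytes.

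Depth was 7509875 to 12648629 expected counts per oocyte for GV and 9930485 to 13988444 for MII in batch A. In batch B it was 7184205 to 17724506 for GV and 2709280 to 19390128 for MI. The 33 members together held 15581 to 29954 counts in a GV oocyte of batch A. Each member had counts above 0 in every oocyte, except for Rfc4 in MI oocytes 6 and 15. Of 16 oocyte markers Gdf9 was the most abundant in every group, at a mean of 2823 CPM (counts scaled to library size) in GV oocytes of batch A, and Figla was the lowest, at 31.5 CPM there and 14.16 CPM at MII. Of 19 granulosa and cumulus markers the most abundant in batch A was Cyp19a1, at a mean of 16.1 CPM for GV and 17.5 CPM for MII, and Amhr2 and Ptx3 were at 0 in every GV oocyte of both batches. The summed level of that list was 31.8 to 63.3 CPM in GV and 36.9 to 51.0 CPM in MII oocytes of batch A, and none of its 3 genes tested at MII passed. Of its 16 genes too low to be tested at MII, 9 had a lower and 7 a higher mean at MII. The lower ones of highest mean at GV, in CPM at GV and MII, were Ccnd2 (3.447 and 0.069), Cyp11a1 (2.488 and 0.485) and Fshr (1.204 and 0.017), and the higher ones Inhba (0.734 and 0.812) and Lhcgr (0.382 and 0.865), and the part of these in the members' changes was not tested. Of 10 blood and immune markers none was abundant enough to be tested at MII, and 8 had a higher and 1 a lower mean at MII. The most abundant, Cd68, had a mean of 0.75 CPM at GV and 1.07 CPM at MII.

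A few libraries stood apart. MII oocyte 1 had 29518 genes detected against at most 22244 in the other MII oocytes, and its blood and immune markers summed to 17.7 CPM against at most 2.43. MI oocyte 15 had the lowest depth, 2709280 counts. MI oocytes 4, 8 and 9 had a median ratio of HTSeq to RSEM counts of 1.07 to 1.13, against 1.98 or more in the other oocytes. The members' counts without these oocytes are given below. Batch A also split by its gene with the most counts, CT010467.1. It held 14.59 to 18.59% of the counts in MII oocytes 2, 3 and 6 and 23.85 to 29.98% in 1, 4 and 5. In GV oocytes it held 7.24 to 13.19% in 2, 4 and 5 and 19.06 to 21.02% in 1, 3 and 6. The part of this split in the members' values was not tested.

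At the GV stage the members differed widely in level. On a scale that divides by transcript length (CPM per kb), the median over oocytes of batch A ran from 6.58 for Gins3, a GINS subunit, to 131 for Orc5, and the median over the 33 members was 23.0. Orc5, an ATP-binding subunit of the origin recognition complex, had a lowest, median and highest value of 119, 131 and 184 CPM per kb. Orc6, the smallest subunit of that complex, came next with 81.9, 107 and 147 CPM per kb. Pcna, the clamp that holds polymerases on DNA, had 57.3, 67.8 and 75.0 CPM per kb. Every GV oocyte of batch A thus held more Orc5 and Orc6 per length than Pcna, while Orc5 and Orc6 overlapped each other. In batch B the order differed, with Orc6 first (median 89.9 CPM per kb), then Mcm5 (58.9) and Orc5 (51.6). At the low end Rfc4, a clamp loader subunit, had a median of 8.91 CPM per kb in GV oocytes of batch A and 2.13 in those of batch B.

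Between GV and MII, 2 of the 33 mRNAs rose and 7 fell in relative level at an adjusted p under 0.05. Mcm2 and Mcm4 were higher at MII, and Gins1, Rpa2, Gins4, Cdc6, Prim1, Rfc4 and Orc3 were lower. Over all 12929 genes tested, 9.06% passed as higher and 11.5% as lower, so the share of members that rose was near that of all genes and the share that fell was above it, with no test of either difference. With a fold change over 2 as well, Gins1 and Rfc4 were the lower members that passed in edgeR (6.32% of all genes), and neither Mcm2 nor Mcm4 passed as higher (2.15% of all genes). The values of the stages did not overlap for 2 higher members (4.07% of all genes) and 5 lower ones (5.72%). The median log2 fold change was 0.03 over the members and 0.01 over all genes, and 14 members had an unadjusted p under 0.05, against 34.3% of all genes. When any one of the 12 oocytes was left out, 2 or 3 members passed as higher and 4 to 7 as lower. Of the 13093 to 13374 genes tested in these fits, 856 to 1131 passed as higher and 1137 to 1447 as lower. Without MII oocyte 1 there were 2 and 5, Prim1 and Rfc4 being lost, against 863 and 1246 of 13113 genes. Without GV oocyte 5 or MII oocyte 4 there were 2 and 4. Over all genes these 2 fits passed 856 and 1137 of 13223, and 908 and 1166 of 13230. A joint edgeR fit of all 37 oocytes, with a batch term, passed 1 member as higher (4.13% of all genes), Mcm4, and 2 as lower (4.05%), Gins1 and Rpa2. The calls of Mcm2, Cdc6, Gins4, Prim1, Rfc4 and Orc3 were lost in that fit. MII oocytes were only in batch A, so its change at MII was still that from the GV oocytes of batch A. The batch term took nothing from it, while the spread was estimated over all 37 oocytes. The part of batch B in the lost calls was not tested. With the replicate number as a block the calls of Mcm4, Prim1, Rfc4 and Orc3 were lost. In that fit 597 and 990 of 12929 genes passed as higher and lower.

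These are shares of the mRNA in an oocyte. ERCC spike-ins, RNAs added from outside the cell, had 44663 to 143062 counts per oocyte in batch A and at most 32 in batch B. Scaled to them, the median of all genes at MII was -0.72 on the log2 scale, and 144 genes (1.11%) passed as higher and 5452 (42.2%) as lower, against 1172 and 1490 with TMM scaling. On that scale 1 member, Mcm2, stayed above 0, edgeR passed no member as higher and 20 passed as lower. The median of the members was -0.70. Directions given here are relative to that shift unless spike-in scaling is named. Since cDNA synthesis starts at the poly(A) tail, a change in the amount of an mRNA and a change in its tail cannot be told apart in these counts. Oocyte markers also moved with the stage. Their summed level was 15120 to 22140 CPM at GV and 10360 to 12610 CPM at MII, and 9 of 16 fell, with none higher. Mitochondrial genes held 1.42 to 2.50% of the counts at GV and 1.94 to 3.79% at MII, and the gene with the most counts, CT010467.1, held 7.24 to 21.02% and 14.59 to 29.98%. The part of these in the members' changes was not tested.

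**Figure D1:**
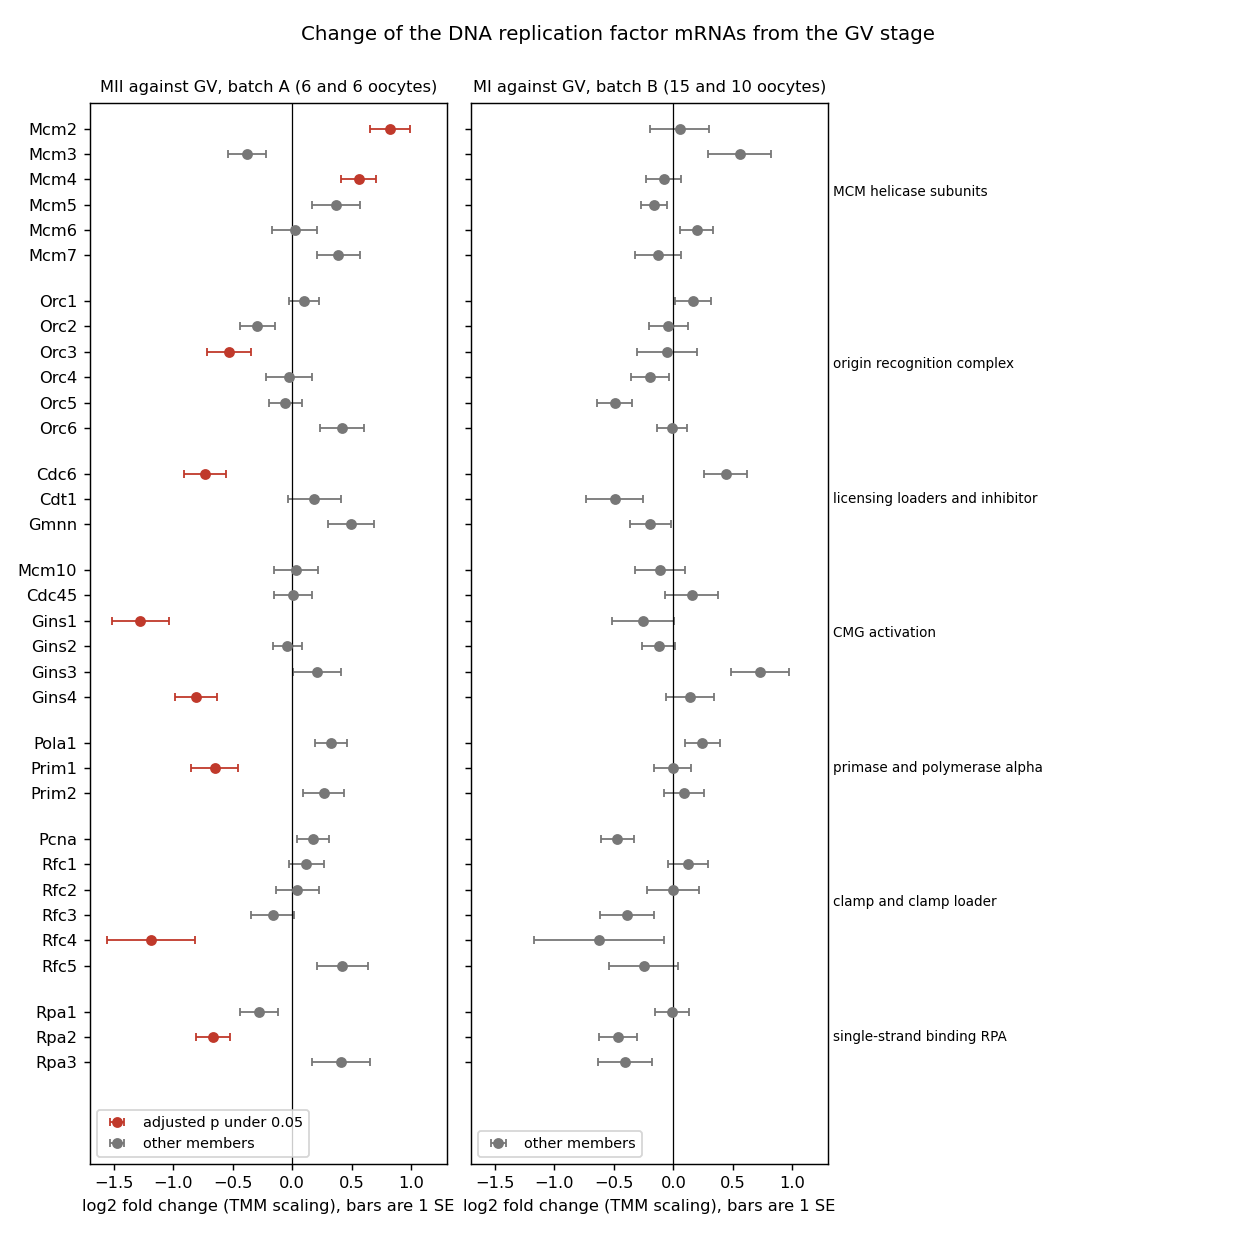
Log2 fold change of each of the 33 members from GV to MII in batch A (left) and from GV to MI in batch B (right), with bars of 1 SE, ordered by complex. Red marks an adjusted p under 0.05, for 2 members above 0 and 7 below it on the left and none on the right, and with spike-in scaling of batch A 18 of the 33 turn from above to below 0, Mcm4 among them, and Mcm2 lies at 0.09.

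Among the 6 subunits of the MCM helicase, the ring that unwinds DNA at the fork, Mcm2 and Mcm4 rose. Mcm2 (chr6:88883474-88898780, minus strand, GRCm38) had a lowest, median and highest level of 49.8, 63.0 and 92.6 CPM in GV oocytes and 106, 117 and 137 CPM in MII oocytes. All 6 MII oocytes were above the highest GV oocyte. Its log2 fold change was 0.82 (SE 0.17, adjusted p = 0.00312), and in the joint fit it was 0.87 and did not pass (adjusted p = 0.076). Mcm4 (chr16:15623897-15637400, minus strand) had 76.4, 94.7 and 123 CPM at GV and 133, 137 and 178 CPM at MII. Again the stages did not overlap, and the log2 fold change was 0.56 (SE 0.15, adjusted p = 0.0142), with an adjusted p of 0.0503 with the replicate number as a block and 0.0436 in the joint fit. With spike-in scaling, neither passed, at 0.09 (adjusted p = 0.785) for Mcm2 and -0.19 (adjusted p = 0.528) for Mcm4. The other 4 subunits did not pass. Mcm7 and Mcm5 had log2 fold changes of 0.39 and 0.37, Mcm6 of 0.02, and Mcm3 of -0.38, with adjusted p between 0.102 and 0.956. The helicase subunits act as a hexamer with 1 copy of each, yet in CPM per kb the GV medians of batch A ran from 13.1 for Mcm7 to 56.7 for Mcm5.

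In the origin recognition complex, 1 of 6 subunits passed. Orc3 (chr4:34570796-34614944, minus strand), part of the core of the ring, fell from 24.9, 29.1 and 44.0 CPM at GV to 16.1, 21.4 and 29.4 CPM at MII. The stages overlapped, with 4 of 6 MII oocytes below the lowest GV oocyte. Its log2 fold change of -0.53 (SE 0.18, adjusted p = 0.0498) was at the edge of the threshold. It was lost without GV oocyte 1, 3, 4 or 5 and without MII oocyte 2, 3, 4, 5 or 6, with adjusted p from 0.0574 to 0.126, with HTSeq counts (adjusted p = 0.0661), without a filter on low counts (0.0796), with RLE scaling in place of TMM (0.0524), with robust empirical Bayes in edgeR (0.0521), with the replicate number as a block (0.145) and in the joint fit (0.455). DESeq2 passed it (adjusted p = 0.0388).

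Orc6 (chr8:85299632-85308278, plus strand), the dormant mRNA of the group, had 105, 139 and 192 CPM at GV and 141, 189 and 234 CPM at MII. All 6 MII oocytes were above the GV median and 3 were above the highest GV oocyte, the other 3 lying within the GV range. The 3 were MII oocytes 2, 3 and 6, which were also above the GV range for Gmnn, Pcna and Rpa3. For Mcm5 the MII oocytes above it were 1, 4 and 5. At GV, Orc6 had 158 to 192 CPM in oocytes 2, 4 and 5 and 105 to 121 CPM in 1, 3 and 6. The log2 fold change was 0.42 (SE 0.18) and did not pass (adjusted p = 0.117), and with spike-in scaling it was -0.29 (adjusted p = 0.293). Exons of Orc6 share 6.9% of their bases with Vps35 on the opposite strand. Orc5, the most abundant member per length in batch A, had 244, 267 and 373 CPM at GV and 232, 295 and 309 CPM at MII. These ranges overlapped, and the log2 fold change was -0.06 (SE 0.14, adjusted p = 0.796). Orc1, Orc2 and Orc4 had log2 fold changes of 0.10, -0.29 and -0.03 and adjusted p from 0.169 to 0.935. About 29.8% of the exon bases of Orc2 overlap Nif3l1 on the opposite strand, so its counts are uncertain.

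Of the 3 licensing factors, Cdc6 passed. Cdc6 (chr11:98907801-98923940, plus strand), which loads the helicase together with Cdt1, had 39.8, 44.6 and 65.6 CPM at GV and 18.5, 29.8 and 34.4 CPM at MII. Every MII oocyte was below every GV oocyte. Its log2 fold change was -0.73 (SE 0.17, adjusted p = 0.00792), and it passed in all 12 fits without 1 oocyte but not in the joint fit (-0.68, adjusted p = 0.0614). Gmnn encodes geminin, the inhibitor that binds Cdt1. Its level was 36.1, 40.6 and 55.4 CPM at GV and 41.6, 59.4 and 81.6 CPM at MII. The MII oocytes were all above the GV median, but 3 of 6 were within the GV range, and the log2 fold change of 0.49 (SE 0.19) did not pass (adjusted p = 0.0788). Among the 12 fits without 1 oocyte it passed only without MII oocyte 5 (adjusted p = 0.0416), and with spike-in scaling its log2 fold change was -0.26. Cdt1 had a log2 fold change of 0.18 (SE 0.22, adjusted p = 0.594).

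Of the 6 factors that activate the helicase, 2 GINS subunits fell. Gins1 (chr2:150905400-150931280, plus strand) fell from 19.8, 27.5 and 36.3 CPM at GV to 6.38, 11.6 and 16.0 CPM at MII. The highest MII oocyte was below the lowest GV oocyte. The log2 fold change was -1.28 (SE 0.24, adjusted p = 0.00176). Gins4 (chr8:23226616-23237659, minus strand) went from 42.4, 55.0 and 75.2 CPM to 23.2, 34.3 and 40.5 CPM. Its stages did not overlap either, and the log2 fold change was -0.81 (SE 0.18, adjusted p = 0.00515), lost in the joint fit (adjusted p = 0.0716). Their partners in the same 4-subunit complex did not pass, with log2 fold changes of -0.04 for Gins2 and 0.21 for Gins3. Gins2 shares 67.3% of its exon bases with Gse1 on the opposite strand, and its counts are uncertain. Cdc45, which binds the helicase with GINS, and Mcm10, which is needed to start unwinding, had log2 fold changes of 0.01 (SE 0.16) and 0.03 (SE 0.18).

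Primase consists of Prim1, which makes the RNA primer, and Prim2, which helps hand it to polymerase alpha. Prim1 (chr10:128015168-128030037, plus strand) had 20.2, 21.8 and 35.8 CPM at GV and 12.3, 16.2 and 19.5 CPM at MII. The stages did not overlap, although the highest MII and the lowest GV oocytes were close. The log2 fold change was -0.65 (SE 0.19, adjusted p = 0.0257), and the adjusted p was 0.0571 to 0.0632 without GV oocyte 2 or 5 or MII oocyte 1 or 4, 0.0705 with the replicate number as a block and 0.0727 in the joint fit. Prim2 and Pola1, the catalytic subunit of polymerase alpha, had log2 fold changes of 0.26 (SE 0.17, adjusted p = 0.302) and 0.32 (SE 0.13, adjusted p = 0.0981).

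In the clamp and its loader, Rfc4 fell and the other 5 did not pass. Rfc4 (chr16:23113943-23127737, minus strand) had 4.86, 9.11 and 12.35 CPM at GV and 1.78, 2.81 and 7.80 CPM at MII. Here the stages overlapped, with 4 of 6 MII oocytes below the lowest GV oocyte and the other 2 within the GV range. Its log2 fold change of -1.18 (SE 0.37, adjusted p = 0.0318) rests on low counts, and the adjusted p was 0.0571 to 0.0777 without GV oocyte 2, 4 or 5 or MII oocyte 1, 3, 4 or 5, 0.054 with the replicate number as a block and 0.386 in the joint fit. Exons of Rfc4 also overlap those of the abundant Eif4a2 on the opposite strand over 12.7% of their bases. Pcna had 85.9, 101 and 112 CPM at GV and 93.8, 112 and 130 CPM at MII, with a log2 fold change of 0.17 (SE 0.13, adjusted p = 0.378). The ranges overlapped, with 3 of 6 MII oocytes above the highest GV oocyte, namely 2, 3 and 6. For Rfc5, at 0.42 (SE 0.22, adjusted p = 0.181), those above it were instead 1, 4 and 5. Rfc1, Rfc2 and Rfc3 lay between -0.16 and 0.12.

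Of the single-strand binding complex RPA, which coats DNA opened at the fork, the middle subunit Rpa2 fell. Rpa2 (chr4:132768332-132778752, plus strand) had 46.0, 63.2 and 74.6 CPM at GV and 30.6, 40.0 and 44.6 CPM at MII. Every MII oocyte was below every GV oocyte. The log2 fold change was -0.66 (SE 0.14, adjusted p = 0.00411). Rpa1, the large subunit, had -0.28 (SE 0.16, adjusted p = 0.232), and Rpa3, the small one, had 0.41 (SE 0.24, adjusted p = 0.245). Processed pseudogenes similar to Pcna, Mcm4, Cdc6, Mcm6, Mcm7, Gmnn, Rfc5 and Rpa3 had mean counts of at most 4.8, that of the copy of Pcna.

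**Figure D2:**
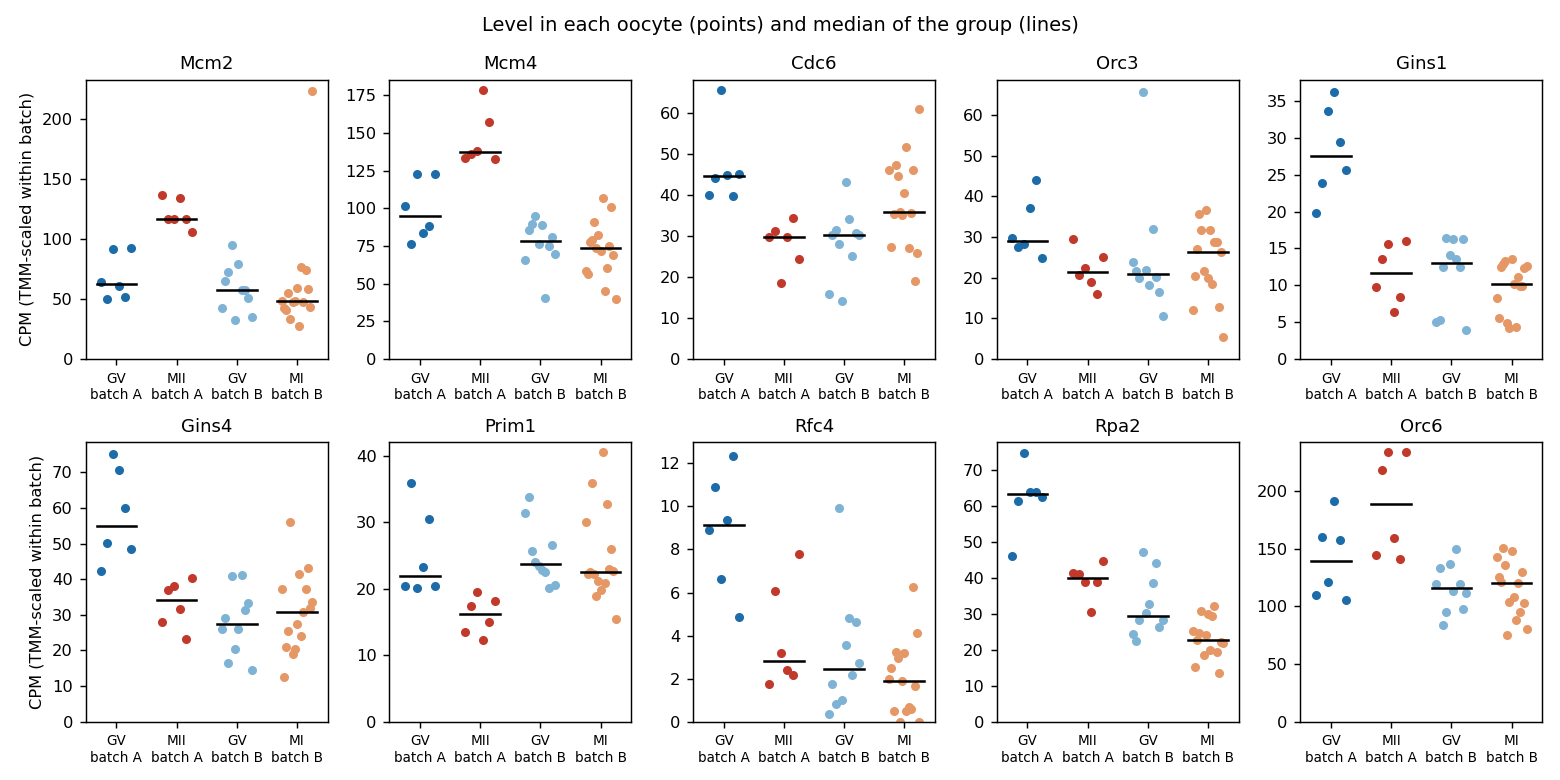
Level of the 9 members that passed the test between GV and MII, and of Orc6, in each of the 37 oocytes, in CPM scaled within each batch. Points are oocytes and lines medians, and MII oocytes lie above all GV oocytes of batch A for Mcm2 and Mcm4 (with spike-in scaling the log2 fold changes of Mcm4 and Orc6 are below 0) and below them for Cdc6, Gins1, Gins4, Prim1 and Rpa2, while MI and GV oocytes of batch B overlap in every panel.

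Between GV and MI, edgeR passed none of the 33 members. In the same test 0.0966% of the 12419 genes passed as higher and 0.0483% as lower, so few genes passed at all. At an unadjusted p under 0.05 there were 7 members, against 11% of all genes, namely Mcm3, Cdc6 and Gins3 with values above 0 and Orc5, Cdt1, Pcna and Rpa2 with values below it. DESeq2 passed 1 member, Pcna, as lower (log2 fold change -0.47, adjusted p = 0.0253), against 0.319% of all genes as lower and 1.19% as higher. The joint fit passed 2 as lower, Orc5 (-0.51, adjusted p = 0.0499) and Pcna (-0.48, adjusted p = 0.0427), against 0.431% as lower and 0.557% as higher. The median log2 fold change was -0.06 over the members and 0.02 over all genes. No member passed without MI oocytes 4, 8 and 9 or without MI oocyte 15. Gins3 was at 0.73 (SE 0.24, adjusted p = 0.204), with 8 of 15 MI oocytes above the highest GV oocyte. The value of Mcm3 was 0.56 (adjusted p = 0.436), and 0.27 (adjusted p = 0.659) without MI oocyte 15.

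The 9 members that passed at MII are given here for MI, Cdc6 following with Pcna. Mcm2 had 32.3, 57.7 and 95.4 CPM in GV and 27.6, 48.7 and 223 CPM in MI oocytes. The highest value was that of MI oocyte 15, the shallowest library, which also held 175 CPM of Mcm3, while no other MI oocyte was above 76.4 CPM for Mcm2. The log2 fold change of Mcm2 was 0.05 (SE 0.25), and -0.22 without that oocyte. Mcm4 was at -0.08 (SE 0.15) and Gins4 at 0.14 (SE 0.20). Gins1 was at -0.25 (SE 0.26), Prim1 at -0.01 (SE 0.15) and Orc3 at -0.06 (SE 0.25). Rfc4, with 0.365, 2.44 and 9.93 CPM in GV and 0, 1.90 and 6.27 CPM in MI oocytes, had a wide error at these low counts (-0.62, SE 0.55). Rpa2 had 22.5, 29.3 and 47.3 CPM in GV and 13.5, 22.6 and 32.1 CPM in MI oocytes. Its log2 fold change was -0.46 (SE 0.16, adjusted p = 0.216), and 7 of 15 MI oocytes were below the lowest GV oocyte. Orc6 overlapped nearly completely, with 84.0, 116 and 150 CPM in GV and 75.2, 120 and 150 CPM in MI oocytes and a log2 fold change of -0.01 (SE 0.12). Granulosa and cumulus markers summed to 28.5 to 65.4 CPM in GV oocytes of batch B and 27.5 to 79.6 CPM in MI oocytes. Of the 6 tested, Gja1 (-3.42) and Ccnd2 (-3.69) fell at MI, the most abundant was Cyp19a1 at GV (15.9 CPM) and Nr5a2 at MI (20.1 CPM), and Amh, Foxl2, Amhr2 and Ptx3 were at 0 in all oocytes of the batch. Of the 16 oocyte markers 1, Tle6, fell at MI (-0.59, adjusted p = 0.0499), and neither of the 2 blood and immune markers tested passed. Mitochondrial genes held 1.53 to 2.99% of the counts in GV and 1.12 to 1.98% in MI oocytes, and CT010467.1 held 20.7 to 34.0% and 17.6 to 41.5%. The part of these in the members' values was not tested.

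Whether the change from GV was the same at MII and at MI was tested directly over all 37 oocytes. The difference passed for 2 of 33 members, against 5.46% of the 15083 genes tested, and 13 members had an unadjusted p under 0.05, against 17.7% of all genes. Cdc6 was lower at MII (-0.73) and had a positive value at MI (0.44) in the fits within batch. In the joint fit these were -0.683 and 0.422, a difference of -1.105 (SE 0.29, adjusted p = 0.0155). In MI oocytes Cdc6 had 19.1, 35.8 and 60.9 CPM, against 14.2, 30.2 and 43.1 CPM in GV oocytes of the same batch, and 6 of 15 MI oocytes were above the highest of these GV oocytes. Pcna differed in the other sense, with 0.17 at MII and -0.47 at MI within batch. In the joint fit it was at 0.233 and -0.483, a difference of 0.716 (SE 0.21, adjusted p = 0.0371). With spike-in scaling Pcna at MII was at -0.58 (adjusted p = 0.0523) and Cdc6 at -1.45 (adjusted p = 0.000294), where the median of all genes was -0.72. Batch B has too few spike-in counts for such scaling, so these values cannot be set against those at MI. The MI level of Pcna was 17.02, 27.3 and 44.2 CPM against 28.4, 39.7 and 55.9 CPM at GV, and 9 of 15 MI oocytes were below the lowest GV oocyte. Both differences passed without MII oocyte 1, without MI oocytes 4, 8 and 9 and without MI oocyte 15, and that of Pcna was lost with HTSeq counts (adjusted p = 0.0695) and without a filter on low counts (adjusted p = 0.168). For Mcm2, Mcm4 and Gins1 the difference did not pass, at 0.84 (adjusted p = 0.228), 0.70 (adjusted p = 0.075) and -0.95 (adjusted p = 0.202). Without MI oocyte 15, a fit added after the data were seen, Mcm2 passed as well (1.12, adjusted p = 0.01). MI oocytes matured in culture and MII oocytes in the animal, and the stages were in different batches, so stage, culture and batch cannot be told apart in this difference.

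The transcript table held 181 transcripts of the 33 genes. Between GV and MII 69 of them were tested and 11 passed, 5 as higher and 6 as lower, against 9.3% of the 22461 transcripts tested, and 8 passed without MII oocyte 1. Between GV and MI 79 were tested and none passed in edgeR, against 0% of all transcripts, with 8 at an unadjusted p under 0.05, against 7.11% of all transcripts. No other tool was run on transcripts. Several that passed at MII were the main transcripts of genes that passed themselves, namely Gins1-201 (log2 fold change -1.44), Gins4-201 (-0.83), Mcm2-201 (0.80), Rpa2-201 (-0.68), Prim1-201 (-0.66) and Mcm4-201 (0.54). Mcm4-201 and Prim1-201 were lost without MII oocyte 1 (adjusted p = 0.0588 and 0.0932). Without a filter the calls of Mcm4-201, Prim1-201, Rpa2-201 and Mcm3-203 were lost (adjusted p from 0.064 to 0.229). Spike-in scaling, tried for transcripts after the data were seen, passed 2 of the 69 as higher and 23 as lower, against 0.516% and 22.4% of all transcripts, and turned Mcm4-201 to -0.19, while Mcm2-201 was at 0.08.

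Mcm5-201, which has a 3′-UTR of 1115 bases, had 6.07, 10.3 and 17.9 CPM at GV and 25.4, 34.4 and 42.1 CPM at MII. All 6 MII oocytes were above the highest GV oocyte, and the log2 fold change was 1.57 (SE 0.27, adjusted p = 0.0031). The shorter Mcm5-203, with a 3′-UTR of 369 bases, was at -0.78 (SE 0.23, adjusted p = 0.0535), and Mcm5-205, with 364 bases, at 0.84 (SE 0.41, adjusted p = 0.232). Mcm5-201 made up 7.52% of the counts of the gene at GV and 17.5% at MII. With spike-in scaling it still passed as higher (0.95, adjusted p = 0.0242). In Mcm10 the transcript with the longer 3′-UTR rose as well. Mcm10-202 (1679 bases) had 3.22, 7.16 and 10.2 CPM at GV and 11.0, 17.7 and 27.9 CPM at MII, again without overlap, at a log2 fold change of 1.41 (SE 0.32, adjusted p = 0.0156). Mcm10-201 (669 bases) was at -0.53 (SE 0.29, adjusted p = 0.289). With spike-in scaling Mcm10-202 stayed above 0 but did not pass (0.66, adjusted p = 0.261).

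For Cdt1 the transcript that rose was Cdt1-205, annotated with a retained intron and an end further downstream. It had 3.27, 6.22 and 8.23 CPM at GV and 26.0, 32.9 and 42.3 CPM at MII, which was the largest change of a member transcript (log2 fold change 2.50, SE 0.26, adjusted p = 0.000118). The coding Cdt1-201 was at -0.39 (SE 0.28, adjusted p = 0.456). The share of Cdt1-205 was 6.98% of the counts of the gene at GV and 36.5% at MII in batch A, but 70.3% at GV in batch B, so this share differed more between the GV oocytes of the batches than between the stages. With spike-in scaling Cdt1-205 still passed as higher (1.70, adjusted p = 0.00618). For Cdc6 the transcript that fell was the one with the shorter 3′-UTR. Cdc6-202 (688 bases) went from 31.4, 36.3 and 54.5 CPM to 14.7, 21.5 and 26.9 CPM, without overlap, at a log2 fold change of -0.90 (SE 0.19, adjusted p = 0.0111), while Cdc6-201 (2731 bases) was at -0.20 (SE 0.24, adjusted p = 0.692). Mcm3-203, a short transcript with a retained intron, fell by 1.93 on the log2 scale (SE 0.52, adjusted p = 0.0342) and was lost without MII oocyte 1 (adjusted p = 0.0602). RSEM divided reads between transcripts that share most of their sequence, and a change in the share of a transcript was not tested.

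**Figure D3:**
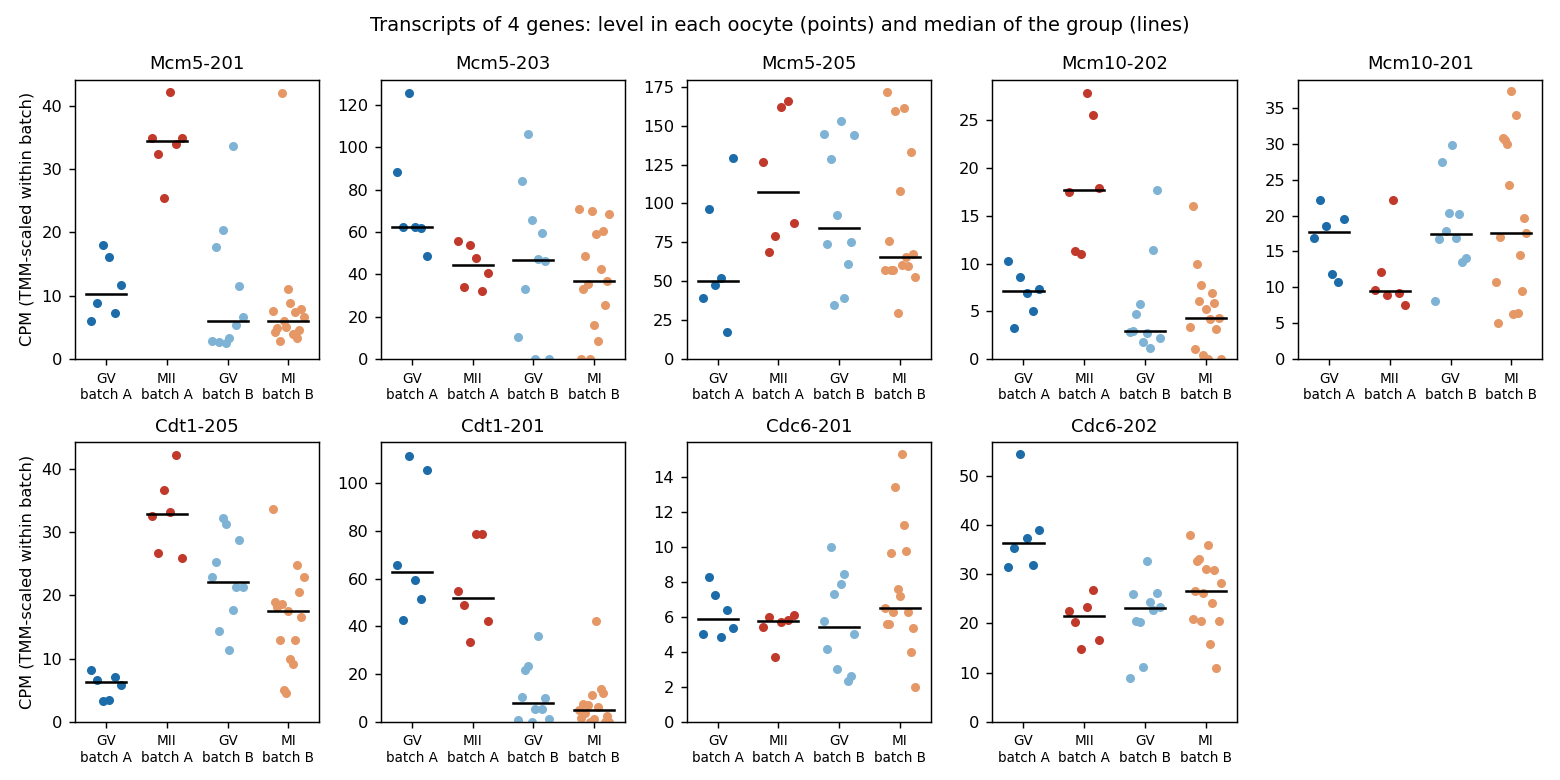
Levels of transcripts of Mcm5, Mcm10, Cdt1 and Cdc6 in each of the 37 oocytes, in CPM scaled within each batch, with points for oocytes and lines for group medians. In batch A the MII oocytes lie above all GV oocytes for Mcm5-201, Mcm10-202 and Cdt1-205 and below them for Cdc6-202, directions that spike-in scaling does not turn, and Cdt1-205 is higher in GV oocytes of batch B than in those of batch A.

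Dormant mRNAs are known to carry a cytoplasmic polyadenylation element (CPE) near the hexamer that directs cleavage and polyadenylation. The last 100 bases of the annotated coding transcript with the highest mean count were searched on the sense strand for the elements TTTTAT and TTTTAAT and for the hexamers AATAAA and ATTAAA. A CPE was found in 14 of 33 members (42.4%) and in 2160 of 11157 tested genes with a coding transcript (19.4%). A hexamer was present in 26 members (78.8%) and in 79.9% of all genes, and both in 12 members (36.4%) against 16.3%. TTTTAAT can overlap AATAAA, as it does in Cdt1 and Cdc45. The order and distance of element and hexamer were not part of the count. Orc1 and Orc4 have a CPE but no hexamer in the window, and in Rfc2 and Rfc3 the element lies after the hexamer.

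Mcm2 and Mcm4, the members that rose, both held a CPE in this window, and none of the 7 members that fell did. Of the other transcripts that rose, Mcm10-202 held TTTTAAT in its last 100 bases, and Mcm5-201 and Cdt1-205 held neither element. The 14 members with a CPE had a median log2 fold change at MII of 0.27, with 2 higher and none lower. The 19 without one had a median of -0.28, with none higher and 7 lower. Among all genes with a coding transcript the same split gave a median of 0.19 with a CPE, where 14.3% passed as higher and 6.1% as lower, and of -0.01 without one, where 7.6% passed as higher and 12.9% as lower. With spike-in scaling both medians of the members were below 0. With a CPE it was -0.46, and none passed as higher and 5 as lower. Without one it was -1.001, and none passed as higher and 15 as lower. On that scale 1.11% and 42.2% of all genes passed, and all genes were not split by CPE there. The fit without MII oocyte 1 passed 863 of 13113 genes as higher and 1246 as lower, again not split by CPE. In it the medians of the members were 0.32 with a CPE, where 2 were higher and none lower, and -0.33 without one, where none were higher and 5 lower. At MI they were -0.04 and -0.06. These are counts of letters at annotated ends, with no test, and the ends that the oocytes used were not measured here.

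The sites are printed to show how close element and hexamer lie. Sequence is from the GENCODE M21 transcripts on GRCm38, 5′ to 3′ on the sense strand, with elements and hexamers in capitals, and all of these sites are in annotated 3′-UTRs. Mcm2, which rose, has both within chr6:88883486-88883511 (minus strand), their starts 14 bases apart, and Mcm7 within chr5:138164611-138164634 (minus strand), 12 bases apart. In Cdt1, at chr8:122573081-122573096 (plus strand), and Cdc45, at chr16:18780464-18780479 (minus strand), they share bases.
Mcm2: attTTTTAATagatttgAATAAAacc
Mcm7: cttTTTTATtctgccAATAAAgtg
Cdt1: ggcTTTTAATAAAgtc
Cdc45: ggtTTTTAATAAAatg

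In Mcm4 and Orc6 the elements lie further from the hexamer. The element of Mcm4 is at chr16:15623973-15623994 (minus strand). Orc6 has 2 elements, at chr8:85307982-85308003 and chr8:85308009-85308030 (plus strand), the second starting 33 bases before the hexamer. Gmnn also has 2, TTTTAAT and TTTTAT, of which the second is printed, at chr13:24751917-24751938 (minus strand).
Mcm4: tcattaatTTTTATagatcctt
Orc6, first element: ctcagacaTTTTATttggtttt
Orc6, second element: tttttaaaTTTTATttcactaa
Gmnn: ttaatccgTTTTATgtaaatag

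For comparison, the hexamers of 3 members that fell are printed with the 17 bases before them, in which neither element occurs. They are at chr2:150931229-150931254 (plus strand) in Gins1, chr10:128029950-128029975 (plus strand) in Prim1 and chr16:23113962-23113987 (minus strand) in Rfc4. Cdc6, Gins4, Orc3 and Rpa2 had neither a CPE nor a hexamer in the last 100 bases of the transcript searched.
Gins1: gtactcttataattgaaAATAAAcag
Prim1: gtcaagagccctgaaacAATAAAtca
Rfc4: tgaaaccagttactataAATAAAtgg

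Outside the 33 members, 64 other replication genes in 4 lists were examined in the same fits. At MII 12 of the 63 tested passed as higher and 8 as lower, against 9.06% and 11.5% of all genes, and the same shares hold beside each list below. With spike-in scaling 0 and 29 passed, against 1.11% and 42.2%, with 1 of the 63 above 0, so the share that was lower was near that of all genes on both scales. Without MII oocyte 1 there were 10 and 7, against 863 and 1246 of 13113 genes. At MI none of the 62 tested passed in edgeR, and 4 had an unadjusted p under 0.05, against 11% of all genes. DESeq2 passed none of 64, with 8 at an unadjusted p under 0.05, against 7.09% of all genes. Among 19 regulators of licensing and origin firing, 6 passed as higher at MII and 1 as lower, with a median log2 fold change of 0.38. These included Ccna2, a cyclin that activates S phase kinases (0.52, SE 0.12, adjusted p = 0.00677), Mtbp, which acts in origin firing (0.68, SE 0.16, adjusted p = 0.00707), and Dbf4, the activator of the Cdc7 kinase (0.35, SE 0.10, adjusted p = 0.0231), and with spike-in scaling all 3 were below 0 (-0.22, -0.03 and -0.39). Ccna2 was lost without a filter (adjusted p = 0.0605), Mtbp in the joint fit (0.0861), and Dbf4 with HTSeq counts (0.0601), without a filter (0.229) and with the replicate number as a block (0.105). Among 18 genes of replicative polymerases and lagging strand synthesis 3 passed as higher and 2 as lower, with a median of -0.19. Rnaseh2a, which helps remove primers, had the smallest adjusted p of these (-1.76, SE 0.32, adjusted p = 0.00159). Pold1, the catalytic subunit of polymerase delta, was at -1.95 (SE 0.39, adjusted p = 0.00253; 0.218 in the joint fit), and Top1, which relaxes supercoils, at 0.63 (SE 0.13, adjusted p = 0.00359), or -0.09 with spike-in scaling.

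Of 12 tested genes of fork protection and alternative clamp loading, 1 passed in each direction, and the median was 0.16. Dscc1, a subunit of an alternative clamp loader, was at -1.80 (SE 0.24, adjusted p = 0.000109). Atad5, which unloads Pcna, was at 0.50 (SE 0.15, adjusted p = 0.0254), or -0.29 with spike-in scaling, and it was lost without GV oocyte 4 or 5 or MII oocyte 4 or 6 (adjusted p from 0.0538 to 0.0597), without a filter (0.117), with the replicate number as a block (0.0949) and in the joint fit (0.11). Of 14 genes of nucleotide supply and chromatin assembly, 2 passed as higher and 4 as lower, with a median of 0.05. The thymidylate enzymes Tyms (-1.49, SE 0.24, adjusted p = 0.000512) and Tk1 (-0.98, SE 0.18, adjusted p = 0.0017) were among the lower ones. In a list of 10 mRNAs known as dormant, which holds Orc6, 4 passed as higher and none as lower at MII in edgeR (9.06% and 11.5% of all genes), with a median of 0.45. These 4 were Dcp2 (0.66), Dcp1a (0.69), Plat (0.54) and Cnot7 (0.47). Without MII oocyte 1 there were 5 higher and none lower, against 863 and 1246 of 13113 genes. With spike-in scaling all 10 were below 0, with a median of -0.26. At MI none of the 10 passed in edgeR or DESeq2, with 0 and 2 at an unadjusted p under 0.05, against 11% and 7.09% of all genes. Of 9 genes of proliferation and its control other than replication factors, 7 were tested at MII. Rb1 (0.76) and E2f2 (0.78) passed as higher (9.06% of all genes) and Cdk4 (-1.28) as lower (11.5%). Cdk4 was low, with a mean of 5.52 CPM at GV and 2.25 CPM at MII. Without MII oocyte 1 there was 1 in each direction, against the same 863 and 1246 genes. With spike-in scaling the median of the 7 was -0.27 and none passed as higher.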

How the data were processed

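The authors trimmed reads with Trim Galore 0.6.4 and deposited HTSeq 0.12.4 counts per gene, made from STAR 2.7.6a alignments, and RSEM 1.3.1 expected counts per gene and transcript, on mm10 with GENCODE VM20 and ERCC sequences. Neither was normalized, and strand handling was not given in the sources used here. Symbols, positions and ends came from GENCODE M21 (54723 of 54752 gene identifiers matched).

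Expected counts were rounded, the 92 ERCC rows were left out, and low genes were removed with filterByExpr. Stages were compared within batch with edgeR 4.0.16 (glmQLFit, glmQLFTest, TMM, Benjamini-Hochberg over all genes tested) in R 4.3.3, after a run on simulated data. Passed means an adjusted p under 0.05. CPM used TMM library sizes of the batch. CPM per kb divided transcript counts by transcript length. Alternatives included DESeq2 1.42.0, HTSeq counts, RLE and ERCC scaling, and leaving out oocytes.

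The members and lists were chosen with earlier results of these data known. All 33 members are accounted for, with lowest, median and highest values for those that passed, Orc6 and the 3 of highest CPM per kb at GV in batch A. Of each pathway list at most 3 genes are named and of the transcripts at most 10, by smallest adjusted p. Gmnn, Gins3 at MI, Prim1-201, the transcripts set beside those that passed, and the genes named from the marker and dormant lists were chosen after their values were seen. Gene overlaps on opposite strands were read from the annotation, since reads of an unstranded library cannot be assigned to a strand.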

Additional observations from a re-analysis of the deposited data

Results flagged for a closer look

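In groups of 6 or 10 oocytes, the level of each member and the sum of the 33 were searched for an oocyte far from the others, at a threshold that chance passes in about 1 of 20 groups. Of 102 groups of values 9 had one, 2 in GV oocytes of batch A, none in MII oocytes of batch A and 7 in GV oocytes of batch B. In batch A these were Cdc6 in GV oocyte 3 (65.57 CPM, the next being 45.09) and Gins3 in GV oocyte 2 (26.87 CPM, next 16.79). In batch B they were Orc3 (65.7 CPM, next 32.08) and Rfc4 (9.929 CPM, next 4.806) in GV oocyte 4, Orc5 (187.9 CPM, next 135.6) and Rfc1 (178.5 CPM, next 111.3) in GV oocyte 1, Rfc2 in GV oocyte 6 (20.75 CPM, next 12.94), Rpa1 in GV oocyte 2 (97.09 CPM, next 71.58) and Rpa3 in GV oocyte 7 (45.32 CPM, next 24.05). Each was the highest of its group. GV oocytes 1 and 4 of batch B have 2 each, at depths of 12819267 and 7184205 counts, the lowest GV depth of that batch being the second of these.

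The change from GV differed between MII and MI for Cdc6 (-1.105 on the log2 scale, MII minus MI) and for Pcna (0.7156), by a test of the difference itself. Stage, culture and batch cannot be told apart in these values.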

How the results depend on the processing

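Mcm2, Mcm4, Gins1, Gins4, Cdc6 and Rpa2 kept their direction and their side of the threshold in all 12 fits without 1 oocyte, with HTSeq counts, without a filter, with RLE, with DESeq2 and with robust empirical Bayes. Gins1 and Rpa2 did so in the joint fit and with the replicate number as a block too. Across the fits without 1 oocyte the members higher at MII numbered 2 to 3 and those lower 4 to 7. Over all genes the numbers were 856 to 1131 and 1137 to 1447. Spike-in scaling of batch A gave 0 higher and 20 lower, with Mcm4 at -0.19 and Orc6 at -0.29 on the log2 scale. Spike-in scaling of the transcripts and every alternative for the named pathway genes were chosen after seeing the data. Chosen then too was leaving out MII oocyte 1 for the lists and the CPE split and MI oocyte 15 for the difference between MII and MI. Spike-in scaling passed 25 transcripts and turned Mcm4-201 (-0.19), Ccna2 (-0.22), Mtbp (-0.029), Dbf4 (-0.39), Top1 (-0.094) and Atad5 (-0.29). A joint fit of both batches with a batch term gave 1 higher (Mcm4) and 2 lower (Gins1, Rpa2) at MII, losing Mcm2, Cdc6, Gins4, Prim1, Rfc4 and Orc3, and 2 lower at MI, and DESeq2 gave 1 lower at MI. The joint fit still set each stage against the GV oocytes of its own batch, with the spread taken over both batches. The replicate number as a block passed 597 of 12929 genes as higher and 990 as lower at MII, and none of 12419 at MI. Of the members it gave 1 higher (Mcm2) and 4 lower (Cdc6, Gins1, Gins4, Rpa2) at MII, losing Mcm4, Prim1, Rfc4 and Orc3, and none at MI. The numbers do not pair the oocytes, since same-numbered oocytes correlated in their deviations at -0.327 to 0.341 over 6 pairs and -0.146 to 0.107 over 10, and 1 and 0 GV oocytes correlated best with their own number. Without a filter 7 member transcripts passed at MII, where more transcripts were tested. The difference between MII and MI passed for 1 member, Cdc6, with HTSeq counts and without a filter. Member counts at the transcript level at MI were 0 in each alternative run. Where not named, the cause was not tested. Of the members, Rfc4 had the lowest mean count (43.8), and how far depth limits each member was not compared.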
